A study of Mus musculus with 6 samples.

Results

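The club cell and airway secretory genes measured here are 10 genes of the 16370 tested: Scgb1a1, Scgb3a1, Scgb3a2, Cyp2f2, Bpifa1, Bpifb1, Muc5b, Muc5ac, Reg3g and Pigr. They were listed as club cell, mucin and airway defence genes by what they encode, with earlier results of these data known, and each was represented by its brightest probe. The lungs came from male C57BL6 mice aged 10 weeks that were starved for 16 h and then given LPS intraperitoneally at 20 mg/kg. Saline or recombinant human thrombomodulin (rhTM) followed at 3 and 24 h, and the lungs of 3 mice per group were collected 30 h after the LPS. All 6 mice received LPS, so the arrays hold no unchallenged lung, and the control shares the LPS and the starvation with the treated group. The question is whether transcripts of the airway lining differed between rhTM-treated and saline-treated lungs during endotoxaemia. Each mouse had its own 1-colour Agilent array, on which a scanner reads the brightness of a DNA probe for each transcript.

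Club cells are the secretory cells of the small airways. They release secretoglobins into the fluid over the epithelium, metabolise foreign chemicals through cytochrome P450 enzymes, and can act as progenitors of ciliated cells. Together with goblet cells and glands, the airway epithelium also makes gel-forming mucins, lipid-binding proteins of the BPI fold and antimicrobial lectins, and it carries antibody onto the airway surface. Recombinant thrombomodulin is a soluble form of the endothelial receptor that turns thrombin towards activation of protein C.

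All 10 genes were well above background on all 6 arrays and none was saturated. Among the 28 other club cell genes on the array, 27 were tested, and Upk3a, the marker of a subset of club cells, was above background on 0 arrays. Scgb1a1, the defining secretoglobin of club cells, lay between 51.4% and 57.1% of the scanner's saturation value and was the third to sixth brightest probe on every array. Levels are given below as multiples of the array's own 75th percentile of probe signal, so that a level of 1 is that percentile. They are not compared between genes, because probes differ in brightness.

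In a table of processed values that the authors also deposited, saline replicate 1 holds what the scanner output gives for rhTM replicate 2 and the reverse, with 99.9% of probes matching crosswise. The sources used here do not settle which is right, so the values are from the scanner output as deposited unless said otherwise, and the log2 fold change of each gene is also given from the table and without these 2 arrays. By the scanner output, saline replicate 1 and rhTM replicate 3 were on one slide and the other arrays on another. By the table, the smaller slide held 2 rhTM arrays alone. Saline replicate 1, by its scanner file, also stood apart in its spike-in control RNAs, with a slope of 0.826 against 1.07 to 1.09 elsewhere. Whether replicates differ in anything beyond the animal is not stated, and p-values measure only the spread between these arrays.

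None of the 10 genes passed limma's test after Benjamini-Hochberg adjustment over all genes, where 0% of the 16370 genes passed. Of the 10, 4 had a higher mean with rhTM and 6 a lower one, and their median log2 fold change was -0.05 against 0.00 for all genes. The groups failed to overlap for 1 of the 10, Bpifa1, which was lower on every rhTM array. Among all genes the share without overlap was 5.52%, with 2.57% lower and 2.95% higher with rhTM. At an unadjusted p under 0.05 the same single gene was found, against 1.87% of all genes. From the table, 6 of the 10 were higher and 4 lower with a median of 0.26, against -0.02 for all genes. Then 2 of the 10, Scgb1a1 and Pigr, were without overlap, both higher with rhTM. Among all genes the table gave 21.7% without overlap, with 9.68% higher and 12.0% lower with rhTM. In a whole lung, fewer cells of a type and less RNA per cell cannot be told apart.

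**Figure D1:**
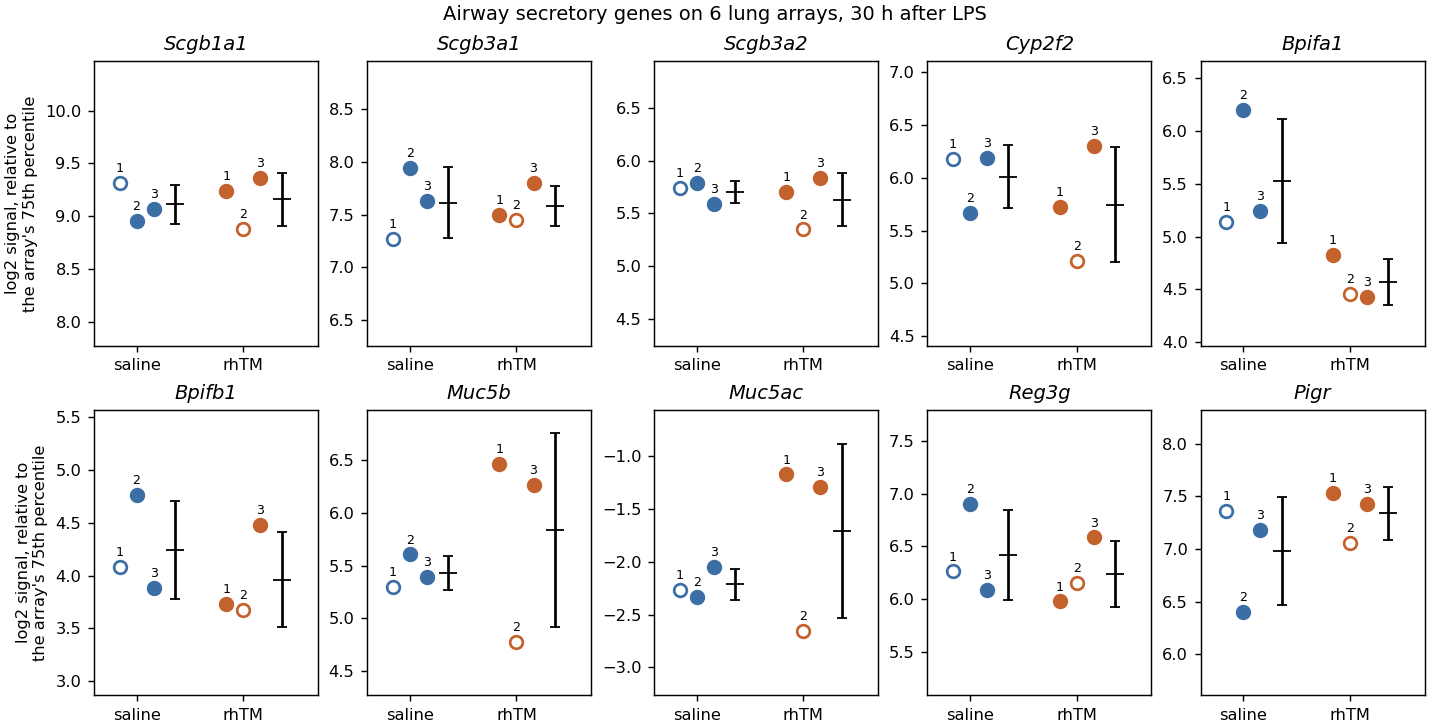
Level of each of the 10 genes on the 6 arrays, as log2 signal relative to the array's 75th percentile (every panel spans the same number of log2 units). Points are mice with their replicate number, open points are the 2 arrays whose sources disagree, and bars give the mean and SD of each group. Bpifa1 is the gene whose groups do not overlap, and rhTM replicate 2 lies below the other arrays for 6 genes.

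Scgb1a1, the main secreted protein of club cells, was at 636, 496 and 536 times the 75th percentile in the saline-treated lungs and at 603, 471 and 658 in the rhTM-treated lungs. The groups overlapped, and the log2 fold change was 0.05 with a 95% interval from -0.36 to 0.46 (limma, unadjusted p = 0.79). From the table the same values made 3 saline arrays from 471 to 536 and 3 rhTM arrays from 603 to 658, which did not overlap (log2 fold change 0.34, interval 0.10 to 0.58, limma unadjusted p = 0.013, adjusted 0.314). Without the arrays in dispute, the difference was 0.29 with an interval from -0.13 to 0.71, and the groups did not overlap. The call of overlap for this gene therefore rested on where these arrays belong.

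Scgb3a1, a secretoglobin of the larger airways, was at 154, 246 and 198 in saline-treated and at 181, 175 and 223 in rhTM-treated lungs. Its saline arrays held both the lowest and the highest value, and the log2 fold change was -0.03 (SE 0.20), with -0.15 from the table and -0.14 without the disputed arrays. Scgb3a2, a secretoglobin of the small airways that depends on the transcription factor NKX2-1, was at 53.5, 55.1 and 48.0 against 52.0, 40.7 and 57.2, a difference of -0.08 (SE 0.16) on the log2 scale. It had the smallest spread of the 10 genes, with an SD of 0.18 log2 units over all 6 arrays where the median gene had 0.20. From the table the difference of Scgb3a2 was 0.19, with an interval from -0.14 to 0.51, and without the disputed arrays it was 0.084.

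Cyp2f2 encodes the cytochrome P450 through which mouse club cells activate naphthalene. It was at 72.7, 50.7 and 73.0 in saline-treated lungs and at 52.9, 37.0 and 79.1 in rhTM-treated lungs. The rhTM group held the lowest and the highest array, and the log2 fold change of -0.27 (SE 0.30) turned to 0.38 from the table and to 0.088 without the disputed arrays. In exact two-sided permutation tests, which cannot go below p = 0.10 with 3 arrays against 3, Scgb1a1 gave p = 0.9, Scgb3a1 p = 1, Scgb3a2 p = 0.8 and Cyp2f2 p = 0.7.

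Bpifa1, also called SPLUNC1, is a secreted surfactant-like protein of the upper airways that binds lipid and restrains the epithelial sodium channel. It was at 35.3, 73.5 and 37.9 in the saline-treated lungs and at 28.3, 22.0 and 21.5 in the rhTM-treated lungs. Every rhTM array was below every saline array, and the rhTM arrays lay close together whereas saline replicate 2 stood apart at the top. The means were 48.9 ± 21.4 and 24.0 ± 3.79 (SD, n = 3 each), and the log2 fold change was -0.96 with an interval from -1.66 to -0.25. Its unadjusted p of 0.015 by limma was the 83rd smallest of all genes, its adjusted p was 1.00, and the exact permutation test gave p = 0.1, the smallest it can give.

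The difference of Bpifa1 was -1.08 within the larger slide and -0.71 within the smaller one by the scanner output. Without saline replicate 2 it was -0.62. By the scanner output all 6 arrays were without overlap, so no part of them with both groups could overlap or change the sign. From the table the array at 22.0 counts as saline and the one at 35.3 as rhTM. The groups then overlapped, with a log2 fold change of -0.50 (interval -1.55 to 0.54, limma adjusted p = 0.605). With neither array, it was -1.10 (interval -2.04 to -0.15), and the 4 arrays left, being part of the same 6, could not overlap. In that reading the genes without overlap were Bpifa1, Scgb1a1, Muc5b, Muc5ac and Pigr, where 41.5% of all genes do not overlap with 2 arrays against 2.

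Bpifb1, or LPLUNC1, is the long-chain relative of Bpifa1, and in RefSeq's mouse assembly GRCm38.p6 only 1 protein-coding gene, Bpifa5, lies between them on chromosome 2. Bpifb1 was at 17.0, 27.2 and 14.7 in saline-treated and at 13.3, 12.7 and 22.3 in rhTM-treated lungs. Its highest array was again saline replicate 2, but rhTM replicate 3, the lowest array for Bpifa1, was its second highest. The log2 fold change was -0.28 (interval -1.01 to 0.44), -0.0063 from the table and -0.22 without the disputed arrays. Without saline replicate 2 it was -0.021.

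Reg3g encodes a C-type lectin that kills Gram-positive bacteria and is induced in airway epithelium by infection. It was at 76.7, 120 and 67.9 in saline-treated lungs and at 63.0, 71.3 and 95.9 in rhTM-treated lungs. The order of its highest arrays was that of Bpifb1: saline replicate 2, then rhTM replicate 3, then saline replicate 1. The log2 fold change of Reg3g was -0.18 (interval -0.79 to 0.43), -0.11 from the table and -0.21 without the disputed arrays. Without saline replicate 2 it was 0.065. The exact permutation p was 0.5 for Bpifb1 and 0.6 for Reg3g.

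Of the 10 genes, 4 were highest on saline replicate 2: Bpifa1, Bpifb1, Reg3g and Scgb3a1. Over all genes, 20.6% were highest on that array. Promoter windows were taken from RefSeq (GRCm38.p6) for 6 of the 10 genes, among them all 4 of these. The windows of the 4 are shown because these genes shared their highest array. Each runs from 250 bases before to 50 bases after the annotated start, on the gene's own strand, and for Bpifb1 the first of its 2 annotated starts is shown. Capitals mark matches on either strand to letters used as a TATA box (TATAAA), FOXA (TGTTTNC), NKX2-1 (CACTTGA), AP-1 (TGANTCA), STAT (TTCNNNGAA) or NF-kB (by name).
Bpifa1: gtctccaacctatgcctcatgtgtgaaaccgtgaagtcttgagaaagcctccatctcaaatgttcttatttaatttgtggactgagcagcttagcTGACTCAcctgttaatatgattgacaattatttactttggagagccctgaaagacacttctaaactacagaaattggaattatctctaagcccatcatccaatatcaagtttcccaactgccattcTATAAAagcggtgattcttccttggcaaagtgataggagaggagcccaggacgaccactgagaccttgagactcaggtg
Bpifb1: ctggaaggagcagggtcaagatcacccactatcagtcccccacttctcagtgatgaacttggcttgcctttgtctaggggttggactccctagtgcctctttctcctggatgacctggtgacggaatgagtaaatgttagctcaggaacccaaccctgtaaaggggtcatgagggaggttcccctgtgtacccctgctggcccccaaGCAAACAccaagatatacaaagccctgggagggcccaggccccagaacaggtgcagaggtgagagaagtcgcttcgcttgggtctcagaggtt
Reg3g: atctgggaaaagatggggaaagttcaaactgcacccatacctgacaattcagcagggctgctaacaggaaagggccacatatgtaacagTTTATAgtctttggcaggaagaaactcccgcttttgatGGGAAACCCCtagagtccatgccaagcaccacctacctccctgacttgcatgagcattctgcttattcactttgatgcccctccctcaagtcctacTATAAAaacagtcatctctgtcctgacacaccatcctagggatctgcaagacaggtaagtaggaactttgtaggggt
Scgb3a1: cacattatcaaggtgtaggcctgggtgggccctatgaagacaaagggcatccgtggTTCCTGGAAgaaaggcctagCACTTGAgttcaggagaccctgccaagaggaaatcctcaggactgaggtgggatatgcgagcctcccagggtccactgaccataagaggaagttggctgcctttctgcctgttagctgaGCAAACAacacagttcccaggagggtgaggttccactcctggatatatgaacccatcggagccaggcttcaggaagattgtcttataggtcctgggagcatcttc
These windows are chr2:154142630-154142929 (plus strand), chr2:154190568-154190867 (plus), chr6:78468825-78469124 (minus) and chr11:49663345-49663644 (plus).

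Bpifa1 held TATAAA from base -29 and the AP-1 letters from base -155, counted from the start site. Reg3g held TATAAA from base -27, its reverse complement from -161 and the NF-kB match, which reads on both strands, from -123. Bpifb1 and Scgb3a1 each held a reverse FOXA match, from -43 and -55, and Scgb3a1 also held NKX2-1 letters from -174 and STAT letters from -194. No motif was found in all 4 windows. Of 32851 promoters of the same length, 13.6% held the TATA letters, 20.5% FOXA, 3.06% NKX2-1, 7.81% AP-1, 8.3% STAT and 4.51% NF-kB. C/EBP letters (TTGCNNAA), in 10.8% of promoters, were in none of the 7 windows taken for members. A match is a description of the letters, and none of these sites was measured.

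Muc5b encodes the gel-forming mucin that mouse airways make at rest. It was at 39.3, 48.7 and 41.9 in saline-treated lungs, and at 88.5, 27.5 and 76.7 in rhTM-treated lungs. The saline arrays lay within a narrow range, while rhTM replicates 1 and 3 were above all of them and rhTM replicate 2 was below all of them. The log2 fold change was 0.41 (interval -0.61 to 1.42, exact permutation p = 0.4), and a second probe of Muc5b gave 0.38.

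Muc5ac encodes the gel-forming mucin that goblet cells add in inflamed airways, and it is the direct neighbour of Muc5b on chromosome 7, with 0 protein-coding genes between. It was at 0.21, 0.20 and 0.24 in saline-treated and at 0.44, 0.16 and 0.41 in rhTM-treated lungs. Again rhTM replicates 1 and 3 were above, and rhTM replicate 2 below, every saline array. The log2 fold change was 0.51 (interval -0.41 to 1.43, exact permutation p = 0.4).

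From the table, in which the lowest mucin array is a saline one, the log2 fold changes were 0.75 (SE 0.35) for Muc5b and 0.77 (SE 0.32) for Muc5ac. The groups still overlapped, since Muc5b on 1 rhTM array (39.3) was below the 2 highest saline arrays and Muc5ac on the same array (0.21) was below the highest. Without the disputed arrays, the differences were 0.87 (interval 0.40 to 1.33) and 0.96 (0.49 to 1.43), and neither mucin overlapped. By limma their unadjusted p was 0.075 and 0.048 and their adjusted p 0.388 and 0.354 from the table, and the adjusted p was 0.648 for both with 2 arrays against 2. These 3 readings share arrays, and in none did either mucin pass the adjusted threshold.

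**Figure D2:**
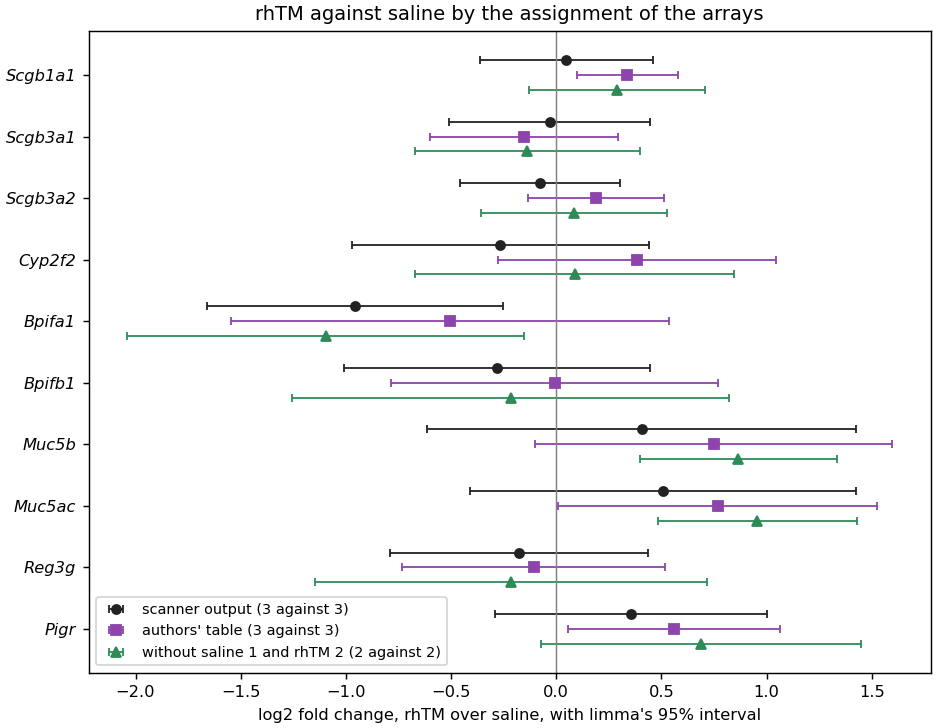
Log2 fold change of rhTM over saline (x axis) for each of the 10 genes (y axis), with limma's 95% interval, under 3 assignments of the arrays: scanner output, the authors' table, and neither of the disputed arrays. Muc5b, Muc5ac and Pigr lie above 0 and Bpifa1 below 0 in all 3, while Scgb3a2 and Cyp2f2 change sign.

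Pigr encodes the receptor that carries dimeric IgA through the epithelium and sheds it with the secretory component. It was at 164, 84.7 and 145 in saline-treated lungs and at 185, 133 and 173 in rhTM-treated lungs. Saline replicate 2, the highest array for Bpifa1, Bpifb1 and Reg3g, was the lowest for Pigr. The log2 fold change was 0.36 (interval -0.29 to 1.00, exact permutation p = 0.4), and a second, dimmer probe gave 0.33. On the second probe the log2 levels were -2.33, -2.38 and -2.43 in saline-treated and -0.84, -3.47 and -1.85 in rhTM-treated lungs. There rhTM replicate 2, and not saline replicate 2, was the lowest array. For the brightest probe, the log2 fold change was 0.069 without saline replicate 2. Without the disputed arrays it was 0.69 (interval -0.07 to 1.45) with no overlap. From the table every rhTM array (164 to 185) was above every saline array (84.7 to 145), with a log2 fold change of 0.56 (interval 0.06 to 1.07, limma unadjusted p = 0.034, adjusted 0.337).

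The 10 genes differed in how far the mice spread, whatever their group. The SD over the 6 arrays was larger than that of 95.9% of genes for Bpifa1, 95.4% for Muc5b and 94.6% for Muc5ac. It was near the middle of all genes for Scgb1a1 (48.5%) and Scgb3a2 (41.5%). From the lowest to the highest array, Bpifa1 spanned 3.41-fold, Muc5b 3.22-fold and Muc5ac 2.80-fold, whereas Scgb1a1 spanned 1.40-fold and Scgb3a2 1.41-fold.

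By slide, with the scanner output, the sign of the difference was opposite on the 2 slides for 5 of the 10 genes. Bpifb1 was at -0.62 and 0.39 on the larger and the smaller slide, Reg3g at -0.43 and 0.32, Cyp2f2 at -0.46 and 0.12, Scgb3a1 at -0.31 and 0.53 and Scgb3a2 at -0.16 and 0.10. Muc5b was at 0.13 and 0.97, Muc5ac at 0.28 and 0.97, Pigr at 0.50 and 0.07 and Scgb1a1 at 0.05 on both. The smaller slide held 1 mouse of each group. With the slide as a block the estimates of all 10 were as without it, since each slide held as many arrays of one group as of the other, and 0 of the 10 passed adjustment.

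The array scanned as rhTM replicate 2 was the lowest for 6 of the 10 genes: Scgb1a1, Scgb3a2, Cyp2f2, Bpifb1, Muc5b and Muc5ac. Over all genes, 12.4% were lowest on it. Averaged over the 10 genes, this array was 0.42 log2 units below their mean, and averaged over the 27 other club cell genes 0.40 below, with 13 of them lowest there. The 27 include Krt15, which passed the background filter through the saline arrays alone and is not one of the 13. All 18 ciliated cell genes above background on the 6 arrays were lowest on this array. So was Ak7, which passed the background filter through the saline arrays alone and was therefore favoured to be low on an rhTM array. Averaged over all 19 with Ak7, this array was 0.70 below their mean, against averages of 0.43 and 0.49 above it on rhTM replicates 1 and 3. Alveolar type 2 genes were 0.10 above their mean on it. The part of these airway marker levels in the members' values was not tested.

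**Figure D3:**
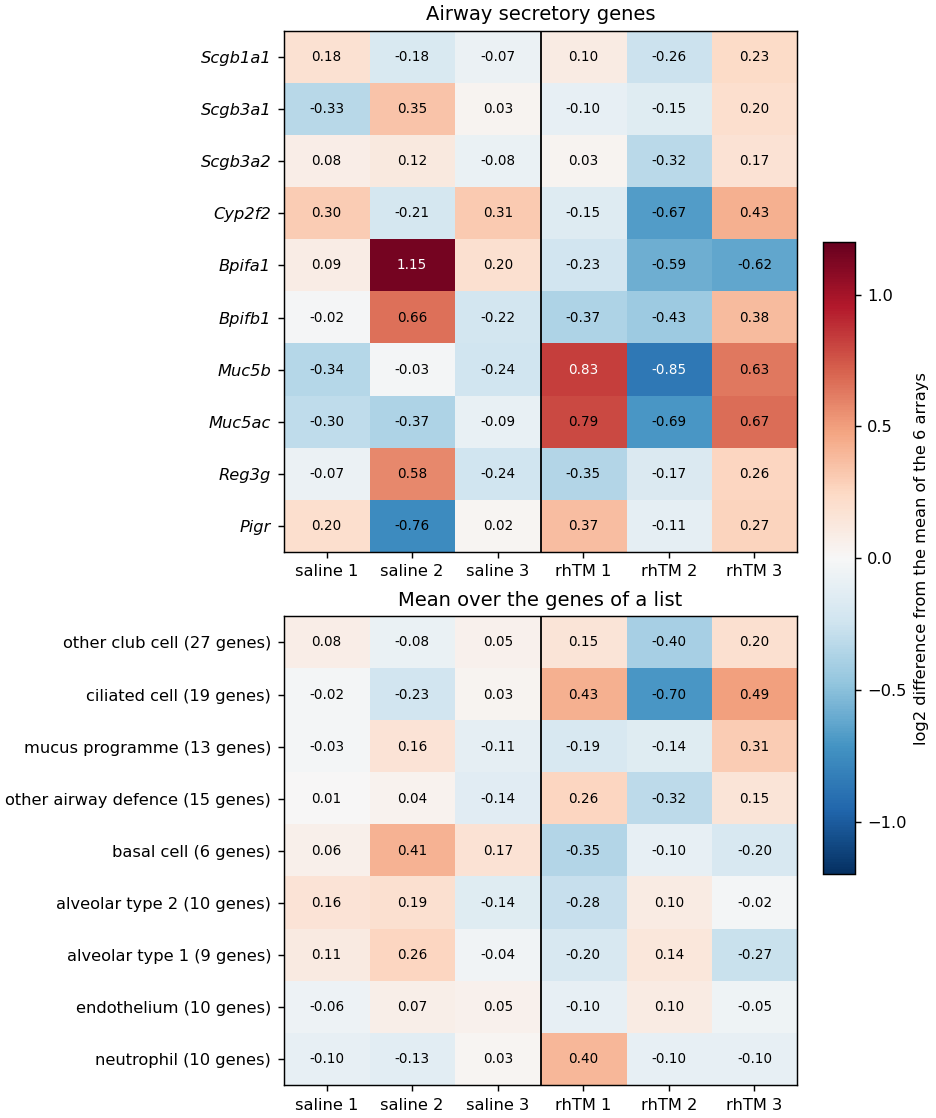
Log2 difference of each array (columns) from the mean of the 6 arrays, for the 10 genes (upper panel) and averaged over the genes of 9 marker lists (lower panel), with red for higher and blue for lower. On rhTM replicate 2, Muc5b is at -0.85, Muc5ac at -0.69, Cyp2f2 at -0.67 and the ciliated cell list at -0.70, while on saline replicate 2 Bpifa1 is at 1.15 and Pigr at -0.76. The list means include Ak7 (ciliated), Krt15 (other club cell) and B3gnt6 (mucus), which passed the background filter through the saline arrays alone.

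Of the 45 pairs among the 10 genes, the closest over the 6 arrays were Bpifb1 with Reg3g and Muc5b with Muc5ac. Bpifb1 and Reg3g had a Pearson r of 0.96 (exact permutation p = 0.0056, adjusted over pairs 0.188) and a Spearman rho of 0.83 (exact p = 0.058, adjusted 0.525). Without the 2 arrays farthest from the median of Bpifb1, r was 0.64. Muc5b and Muc5ac had an r of 0.96 (exact permutation p = 0.0083, adjusted 0.188) and a rho of 0.83 (exact p = 0.058, adjusted 0.525), and r was 0.73 without the 2 arrays farthest in Muc5b. No pair passed adjustment. These values do not depend on which of the disputed arrays is saline, since they use no group.

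**Figure D4:**
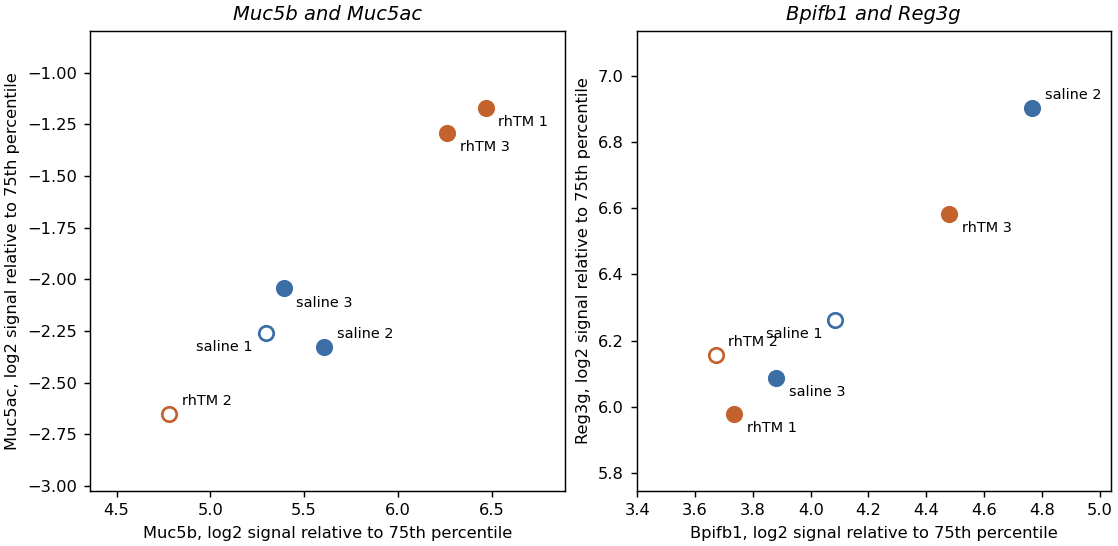
Log2 signal relative to the array's 75th percentile for Muc5ac against Muc5b (left) and Reg3g against Bpifb1 (right), 1 point per mouse, blue for saline and orange for rhTM, open where the sources disagree. The mucins are highest on rhTM replicates 1 and 3, and Bpifb1 and Reg3g are highest on saline replicate 2 and rhTM replicate 3.

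Bpifa1, the gene with the largest spread, was compared with all other genes tested. The most alike over the 6 arrays were Gm16367 (r = 0.99), Aoah (0.98), which encodes the enzyme that deacylates LPS, Abhd2 (0.97), Atp6v0a4 (0.97) and 2410018L13Rik (0.97). In all, 76 of the 16369 genes compared had an r above 0.9, and none of the other airway secretory genes was among them. Bpifb1 was the closest of these at 0.57, and Pigr the farthest at -0.77. With 6 arrays from one experiment and so many genes, high values of r can arise by chance, and how many was not worked out. These values describe the arrays, and no p is attached.

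Of the 27 other club cell genes tested, 26 were above background on all 6 arrays, and of these 11 were higher and 15 lower with rhTM, with a median of -0.07. After adjustment 0 passed. For 5 of them the groups did not overlap, and all 5 were lower with rhTM, where 2.57% of all genes were without overlap in that direction. These were Cyp4b1, a cytochrome P450 (-0.34), Aldh1a1, a retinal dehydrogenase (-0.30), Fmo2, a flavin monooxygenase of lung (-0.35), Ces1d, a carboxylesterase (-0.24), and Aox3, an aldehyde oxidase (-0.26). The keratin Krt15 had the lowest log2 fold change of the list at -0.92, also without overlap, but it passed the background filter through the saline arrays alone, being above background on only 2 of 3 rhTM arrays, so it was favoured to be lower and is left out of these counts. From the table all of these genes overlapped, with values from -0.40 for Krt15 to 0.018 for Ces1d. For the 26 genes the table gave 17 higher and 9 lower with a median of 0.25. A different set of 6 genes was without overlap there, Aldh1a7, Hp, Por, Foxa2, Retnla and Selenbp1, all higher with rhTM, where 9.68% of all genes were without overlap in that direction and 21.7% in either. Without the disputed arrays 16 of the 26 were higher, with a median of 0.25.

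Retnla, a resistin-like protein secreted by airway epithelium and macrophages, had the highest log2 fold change of this list at 0.81 (SE 0.87). It was at 68.9, 29.2 and 65.0 in saline-treated and at 201, 21.0 and 168 in rhTM-treated lungs. As with both mucins, rhTM replicates 1 and 3 were above every saline array and rhTM replicate 2 below every one. From the table its log2 fold change was 1.96, and the groups did not overlap. Nkx2-1 and Foxa2, transcription factors of lung epithelium, were at -0.01 and 0.13.

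Of 12 genes of the mucus cell programme above background on all 6 arrays, 7 were higher and 5 lower, from Muc20, a membrane mucin (0.32), to Itln1, an intelectin (-0.68), with a median of 0.07. B3gnt6 (-0.19) passed the filter through the saline arrays alone and is not counted. Retnlb is not counted either. It was tested only from the table and without the disputed arrays, and passed through its rhTM arrays alone. Spdef, the transcription factor that drives goblet cell differentiation, was at 0.77, 0.76 and 0.72 in saline-treated and at 1.16, 0.64 and 0.93 in rhTM-treated lungs. Its arrays fell in the same places as those of the mucins, with 2 rhTM arrays above and 1 below all saline arrays. From the table Spdef was at 0.42 without overlap, higher with rhTM, whereas both mucins overlapped there. Agr2, which folds mucins, was at 1.28, 1.44 and 1.08 against 1.27, 1.14 and 2.60. Clca1 and Tff3, further goblet cell markers, were not tested because they did not pass the background filter. From the table, 7 of the 12 were higher, with a median of 0.02. Spdef and Fcgbp, a mucus-associated protein (-0.30), were the genes of this list without overlap there, against 21.7% of all genes, and without the disputed arrays 7 of the 12 were higher, with a median of 0.03.

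Of 15 other airway defence genes tested, 9 were higher and 6 lower, with a median of 0.07. The range ran from Tslp, an epithelial cytokine (0.72), to Ltf, the iron-binding lactoferrin (-0.31). Tslp did not overlap, at 0.244, 0.244 and 0.229 in saline-treated and 0.747, 0.283 and 0.287 in rhTM-treated lungs, with rhTM replicate 1 far above all other arrays. It was the only one of the 15 without overlap, against 5.52% of all genes, and from the table it overlapped (0.57). Lcn2, which withholds iron from bacteria, was at 0.14 and Wfdc2, a whey acidic protein inhibitor, at 0.27. The table gave 11 of the 15 higher with a median of 0.30, and Lcn2, Wfdc2, Lyz1, Ccl20 and Il33 did not overlap, all higher, against 21.7% of all genes. Without the disputed arrays 10 of the 15 were higher, with a median of 0.12.

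Of the other cells of the airway wall, all 18 ciliated cell genes above background on the 6 arrays had a higher mean with rhTM, up to 0.40 for Tekt1, with a median of 0.14 and 0 past adjustment. Ak7 (-0.01) passed the filter through the saline arrays alone. The table gave 18 of 18 higher with a median of 0.57, and without the disputed arrays it was likewise 18 of 18 with 0.55. All 6 basal cell genes were lower, from Trp63 (-0.04) to Krt14 (-0.87), with a median of -0.39, and 1 of the 6, Aqp3 (-0.66), did not overlap, against 2.57% of all genes in that direction. The table gave 5 of the 6 as lower, with Aqp3 overlapping at -0.19, while Krt14 (-1.04) and Dapl1 (-0.39) did not overlap, both lower with rhTM, against 12.0% of all genes in that direction. Without the disputed arrays 5 of 6 were lower. Of 4 neuroendocrine genes above background on all arrays 3 were higher, with Resp18 at 0.36 the highest, and Chga, which passed through the saline arrays alone, was at -0.16. Cartilage had 2 of 9 genes tested, Sox9 (-0.14) and Col2a1 (0.32).

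Beyond the airway, 9 of 10 alveolar type 2 genes were lower, from Slc34a2 (-0.47) to Sftpd (0.15), and 7 of 9 alveolar type 1 genes, from Cav1 (-0.67) to Aqp5 (0.17). Endothelial genes were higher for 6 of 10, from Tek (-0.46) to Cldn5 (0.28), and smooth muscle genes for 3 of 6, from Acta2 (-0.35) to Cnn1 (0.61). Neutrophil genes were higher for 8 of 10, from Mmp9 (-0.10) to Camp (0.49), macrophage genes for 3 of 7, from Itgax (-0.24) to Fabp4 (0.30), and erythroid genes for 4 of 4, from Hba-a1 (0.01) to Slc4a1 (0.39). Of the thymus list only Dntt (-0.14) was tested, and of the thyroid and oesophagus list only Tg (0.29). These counts are from the scanner output, and some turned with the assignment of the arrays. From the table and without the disputed arrays, alveolar type 2 genes were lower for 5 of 10 in both, alveolar type 1 genes for 8 and 7 of 9, and macrophage genes for 5 and 6 of 7. Endothelial genes were higher for 4 and 6 of 10, smooth muscle genes for 4 and 3 of 6, neutrophil genes for 7 and 8 of 10 and erythroid genes for 4 of 4 in both. None of the genes in these lists passed adjustment in any of the 3 readings.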

How the data were processed

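RNA from the lungs of 6 mice, 3 per treatment, was measured on 1-colour arrays, 1 per mouse. The authors deposited scanner output from Feature Extraction 10.7.3.1 (the submitters' processing notes name 9.1), whose processed signal is an intensity corrected for background within the array. The deposited table holds intensity values of the same arrays, unscaled. The RNA kit is simplyRNA in the methods but RNeasy in the labels, and the control is called PBS in the general methods.

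Control and outlier-flagged spots were left out, and 398 of 56605 probes with only such spots on some array were dropped. Each array's 75th percentile was subtracted from the log2 of the deposited signals. Probes well above background on all 3 arrays of a group were kept (36061), and the brightest probe of each gene, matched by accession to RefSeq GRCm38.p6, was tested with limma 3.58.1 in R 4.3.3, with Benjamini-Hochberg adjustment over 16370 genes (16320 from the table) at 0.05. Probe specificity between related genes was not checked. The array design uses another build, so no probe coordinates are given. Promoter positions and gene order are those of GRCm38.p6.

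Named genes are the 10 members, the highest and lowest of each list, genes past the threshold, and the 5 most like the member of largest SD. Aldh1a7, Hp, Por, Selenbp1, B3gnt6, Retnlb, Chga, Fcgbp, Dapl1, Ccl20, Il33, Lyz1, Cyp4b1, Aldh1a1, Fmo2, Ces1d, Aox3, Aqp3, Nkx2-1, Foxa2, Spdef, Agr2, Lcn2, Wfdc2 and genes listed as not tested were named after their values were seen. The lowest gene of the neuroendocrine list is not reported here. Members and lists were chosen with earlier results of these data known. Alternatives were other background correction (normexp, offset 50, on median spot signals), scaling, filters, probe rules, blocks, the table, arrays left out and the methods' t-test. Data were also simulated for 16370 genes, with 100 genes changed by 1 log2 unit and 100 by 2. Of these, 40% and 88% were called, beside 9 false calls. The simulated noise was independent for each gene and array, so these are not detection rates for the real arrays. The number of arrays limits precision.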

Additional observations from a re-analysis of the deposited data

How the results depend on the processing

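The count of the 10 airway secretory genes past the adjusted threshold was 0 under all 19 alternatives. Bpifa1 and Bpifb1 stayed below 0, and Muc5b, Muc5ac and Pigr above 0, in every one. Several alternatives could not move these values. The filters on dim probes, the blocks on the scanner output, the rule against saturated probes and the t-test left them as they were. For Bpifa1, leaving out arrays could not change the sign either, since its groups did not overlap. Over all genes, 0 passed in limma's test (306 at an unadjusted p under 0.05), 0 by the methods' t-test (340) and 0 from the authors' table (2279). Adding a slide block to the table gave 432 genes, and the arrays without saline 1 and rhTM 2 gave 1. In that blocked fit slide 2 holds rhTM arrays only, so the contrast rests on rhTM replicate 1 against saline. Leaving out 1 array gave 0 to 3 genes, with 3 without saline replicate 1 and 2 without rhTM replicate 1. At the methods' thresholds (fold 2 or 0.5, p of 0.01) there were 3 higher and 3 lower genes, 1 and 0 by the methods' t-test and 52 and 13 from the table, with 0 of the airway secretory genes in each.

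The median of the 10 genes moved from -0.05 to 0.26 with the table. The number without overlap, 1 by the scanner output, was 2 from the table with or without the slide block and 5 without both disputed arrays, where 5.52%, 21.7% and 41.5% of all genes were without overlap. With 1 array left out it was 1 to 4, the 4 being Bpifa1, Muc5ac, Muc5b and Pigr without rhTM replicate 2 (24.5% of all genes), and 2 without rhTM replicate 3 (15.6%). The cause was not tested beyond the exchange of arrays itself.

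Small log2 fold changes changed sign. Cyp2f2 was 0.38 from the table, 0.037 with the slide block added and 0.088 without both arrays, and ran from -0.55 (without rhTM replicate 3) to 0.0022 (without rhTM replicate 2) with 1 array left out. Scgb3a2 was 0.19, 0.13 and 0.084 under the same settings, and ran from -0.18 to 0.065 without the same arrays. Scgb1a1 was -0.015 with quantile normalization, -0.031 without saline replicate 2 and -0.053 without rhTM replicate 3, its lowest with 1 array left out (highest 0.19, without rhTM replicate 2). Scgb3a1 ran from -0.20 without saline replicate 1 to 0.14 without saline replicate 2, and was also above 0 without rhTM replicate 1 (0.011) or 2 (0.036). Reg3g ran from -0.35 without rhTM replicate 3 to 0.065 without saline replicate 2. With 1 array left out, Bpifa1 ran from -1.15 to -0.62, Bpifb1 from -0.54 to -0.021, Pigr from 0.069 to 0.55, Muc5b from 0.090 to 0.93 and Muc5ac from 0.24 to 0.98. The values nearest 0 came without saline replicate 2 for Bpifa1, Bpifb1 and Pigr and without rhTM replicate 1 for both mucins. With the table and the slide block, Muc5b was 1.21 and Muc5ac 1.17.

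Same-numbered arrays correlated in their deviations from the group means at -0.30, 0.44 and -0.45, so the numbers do not pair them. With the replicate block, 0 genes and 0 of the 10 passed. This block could not change the overlap (1 of the 10) or the log2 fold change of Bpifa1 (-0.96). With normexp background correction, the value of Muc5ac was 0.39.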
